A study of Mus musculus with 7 samples.

Results

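The 10 h arrays of a study of NIH3T3 fibroblasts overexpressing Acid1 form the subject here. NIH3T3 is an immortalised mouse embryonic fibroblast line. They are 3 of the 7 deposited arrays; the other 4 carry the 3 h time point. Each array co-hybridised cDNA from treated fibroblasts with cDNA from non-treated fibroblasts, in 2 colours. At 10 h the treated cells were in Cy5 on replicates 1 and 2 and in Cy3 on replicate 3. All probes with a value on every one of the 3 arrays were taken, which kept 13170 of the 20355 probes.

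The labels name the line, the overexpressed Acid1 and the time after treatment, but not the vector, its promoter, the agent that makes up the treatment, or whether non-treated cells also carry the construct. The labels do not say whether the 3 arrays came from separate cultures, so every p-value reflects array-to-array spread alone, and that spread may be technical. The non-treated cells enter only as the second channel, so their own spread cannot be told apart from that of the treated cells. No probe carried the name Acid1 (0 of 20355 probes, and 0 genes of the RefSeq table by symbol or synonym), so the overexpression could not be checked in these data. A ratio gives no level, so fibroblast markers could not be checked for presence either. In bulk cells, fewer cells of a type and less RNA per cell cannot be told apart.

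Several gene programmes recur below. Cytosolic ribosomal proteins are the structural parts of the ribosome, and in proliferating fibroblasts their mRNAs are among the most abundant. The respiratory chain and ATP synthase make ATP in mitochondria from subunits mostly encoded in the nucleus. Sterol synthesis turns acetyl-CoA into cholesterol and is switched on when SREBP2, a membrane-bound transcription factor, is released as cell sterol drops. Neutral lipid that the cell does not use is stored in droplets coated by perilipins. Immediate early genes are transcription factors and phosphatases that fibroblasts switch on within minutes of serum or stress and then switch off.

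Promoters are shown for the gene of the probe with the lowest p-value, Plin2, and for Hmgcs1 and Msmo1, 2 sterol enzymes that stood above the array median on all 3 arrays. The windows come from RefSeq on GRCm38.p6 and run from 250 bases before to 50 bases after the gene start, 5′ to 3′ on the gene's strand. They lie at chr4:86670010-86670309 (minus strand), chr13:119690101-119690400 (plus strand) and chr8:64733529-64733828 (minus strand). Capitals mark CCAAT or its reverse complement, and TCACNCCAC, a sterol regulatory element motif, or its reverse complement.
Plin2: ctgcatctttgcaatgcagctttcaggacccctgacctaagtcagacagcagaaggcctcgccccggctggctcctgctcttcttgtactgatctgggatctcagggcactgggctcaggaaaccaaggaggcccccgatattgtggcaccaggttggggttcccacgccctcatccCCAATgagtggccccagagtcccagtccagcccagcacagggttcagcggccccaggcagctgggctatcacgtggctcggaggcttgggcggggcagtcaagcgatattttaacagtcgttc
Hmgcs1: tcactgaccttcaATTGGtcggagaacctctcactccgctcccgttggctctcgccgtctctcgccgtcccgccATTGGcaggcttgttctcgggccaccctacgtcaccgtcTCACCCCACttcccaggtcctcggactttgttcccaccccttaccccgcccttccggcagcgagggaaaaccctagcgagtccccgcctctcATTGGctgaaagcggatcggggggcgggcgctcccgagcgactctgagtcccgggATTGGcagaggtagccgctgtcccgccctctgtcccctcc
Msmo1: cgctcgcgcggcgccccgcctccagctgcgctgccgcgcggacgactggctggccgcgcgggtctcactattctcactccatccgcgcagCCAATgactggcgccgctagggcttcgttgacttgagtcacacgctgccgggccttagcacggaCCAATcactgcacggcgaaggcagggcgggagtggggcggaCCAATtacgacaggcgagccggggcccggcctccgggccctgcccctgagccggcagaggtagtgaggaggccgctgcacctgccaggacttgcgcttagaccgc

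The Hmgcs1 window held 4 CCAAT matches and 1 TCACNCCAC match, the Msmo1 window held 3 CCAAT matches, and the Plin2 window held 1. Of the sterol genes measured at 10 h, 10 had a window, and CCAAT was found in all 10 on either strand, against 41.06% of 27025 genes with a window and 43.06% of the 5825 of these measured at 10 h. TCACNCCAC was found in 1 of the 10, against 1.436% of all genes with a window. The 2 motifs did not overlap in the windows shown. Of the measured ribosomal genes with a window, CCAAT was found in 9 of 26 for the large subunit and 6 of 18 for the small subunit. These matches are descriptions of the letters in the windows.

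The deposited values were read as log2 ratios of treated over non-treated cells. The labels do not settle this direction, and every sign below rests on it. If the deposited values were Cy5 over Cy3 instead, the sign of replicate 3 turns, and values under that reading are given for the lists of the main results and, as a range, for the named probes. Replicates 1, 2 and 3 held 17766, 16395 and 16594 measured spots. Each also held 1 repeated extreme value, 16.054 on 163 spots, 16.21 on 187 spots and -15.978 on 210 spots, which was treated as missing. At 3 h this value was likewise positive on arrays with treated cells in Cy5 and negative on those with treated cells in Cy3. If 1 dye channel set it, the arrays with treated cells in Cy3 were turned before deposit. Which channel set it is not stated. The deposited medians of replicates 1, 2 and 3 were -0.04, -0.006 and 0.005. Each array was centred on its own median, so a value of 0 means the array median. Over the 13170 probes the arrays resembled each other little. Pearson's r across probes was 0.0893 between replicates 1 and 2, -0.0483 between replicates 1 and 3 and -0.122 between replicates 2 and 3. Probes are not independent replicates, and these coefficients are descriptions.

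The number of arrays limits the precision, and so does the signal of single spots. On 11.87% to 12.98% of spots the ratio equalled that of 2 small whole numbers, both at most 8, to within 0.0016 after a constant of the array was removed. At a shifted control grid the share was 2.68% to 2.86%. At 3 h the share was 54.8% to 63.4%. The probes with no such value on any 10 h array, 9976 of 13170 (75.75%), had a median SD of 0.35 over the 3 arrays, and those with 1 such value had a median SD of 0.68.

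The first question was which single probes differed between treated and non-treated cells at 10 h. None did at an adjusted p under 0.05 (limma's moderated test, Benjamini-Hochberg over 13170 probes; 0 called, 0% of those tested), and the smallest adjusted p was 0.904. At an unadjusted p under 0.05 there were 608 probes, 4.62% of those tested, of which 308 (2.34%) were higher and 300 (2.28%) were lower. Above the array median on all 3 arrays were 1963 probes (14.9%), and below it on all 3 were 1707 (13%). Averaged by gene, 0 of 7216 genes passed (0%; smallest adjusted p 0.893 with limma), and 350 (4.85%) had an unadjusted p under 0.05. Read as Cy5 over Cy3, 0 probes passed as well (smallest adjusted p 0.746 with limma), 749 (5.69%) had an unadjusted p under 0.05 and 2068 (15.7%) were above the median on all 3 arrays.

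Some probes had a sign that followed the dye of the treated sample. Of these Rnf6, a ubiquitin ligase, stood at -2.41, -2.45 and 2.57 on replicates 1, 2 and 3, and Birc5, the mitotic protein survivin, at -1.84, -1.47 and 1.93. Both were chosen after their values were seen, from the 10 named probes of lowest p under the Cy5 over Cy3 reading, where they average -2.48 and -1.75. In the main reading their arrays lie on opposite sides of the median.

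Plin2, a perilipin that coats lipid droplets, had the lowest unadjusted p-value of all probes. Its ratio on replicates 1, 2 and 3 was 2.49, 2.51 and 2.58. The values of the 3 arrays lay close together and far above 0, with a mean of 2.53 ± 0.049 (SD, n = 3), or 5.76-fold. Under the Cy5 over Cy3 reading its mean was 0.81, with replicate 3 on the other side of 0. In the main reading its SE was 0.133, its unadjusted p 0.000143 and its adjusted p 0.904 by limma. A second Plin2 probe gave 0.38, 0.49 and 0.40, with a mean of 0.43 ± 0.060 (SD, n = 3). Both probes were above the array median on all 3 arrays, but every value of the second lay below every value of the first. For the first probe 1 of the 3 values was at a small whole-number ratio. At 3 h it was measured on 2 of 4 arrays, at -0.12 and 0, and the second probe also on 2, at 1.14 and 0.58.

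The other probes with the lowest p-values among those above the median on all 3 arrays belonged to genes of several functions. Rab10, a small GTPase of membrane traffic, stood at 1.73, 2.11 and 1.63. Entpd2, a cell surface enzyme that cleaves extracellular nucleotides, stood at 1.64, 2.19 and 2.33. Smc2, a core subunit of condensin, stood at 1.57, 1.31 and 1.18. All 3 arrays gave each of these genes a ratio above 1 on the log2 scale. Skap1, an adaptor known from T cells, stood at 2.49, 1.78 and 1.69, and Kcnip2, a potassium channel partner, at 2.00, 1.31 and 2.29. Micu3, a partner of the mitochondrial calcium uniporter, stood at 1.15, 0.87 and 1.11. Ammecr1 had the least spread of this group after Plin2, with 0.925, 0.999 and 1.09. Fxyd2, a regulator of the sodium pump, averaged 1.11 ± 0.23 (SD, n = 3), and Med31, a Mediator subunit, averaged 1.17 ± 0.31 (SD, n = 3). Each had an adjusted p of 0.904 by limma. Read as Cy5 over Cy3, the means of these 10 probes, Plin2 included, were 0.28 to 0.86, with replicate 3 opposite to the others.

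Of the 10 lower probes, Snx29, a sorting nexin, had the lowest mean, with -2.88, -3.20 and -1.83. Slain2, a microtubule plus-end protein, stood at -1.45, -2.07 and -1.82. Brk1, the smallest subunit of the actin-regulating WAVE complex, stood at -1.64, -1.20 and -1.57. These 3 probes were at least 1 log2 unit below the median on every array. Nol3, a repressor of apoptosis, stood at -1.86, -1.20 and -1.70, and Gdpd3, a lysophospholipid phosphodiesterase, at -1.70, -1.45 and -1.23. R3hdm2 stood at -1.32, -1.10 and -1.31. Its SD of 0.13 was the least of the 10. Cyb561d2, a cytochrome b561 family member, averaged -1.29 ± 0.15, Zfp536, a zinc finger protein, -1.35 ± 0.19, Meis3, a homeobox factor, -1.31 ± 0.21, and Rab21, an endosomal GTPase, -1.28 ± 0.22 (SD, n = 3 each). Their adjusted p was 0.904 by limma as well. The means of the 10 lower probes were -1.42 to -0.27 when read as Cy5 over Cy3. The 20 probes were picked for lying on one side on all 3 arrays, so leaving out an array cannot turn their sign.

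**Figure D1:**
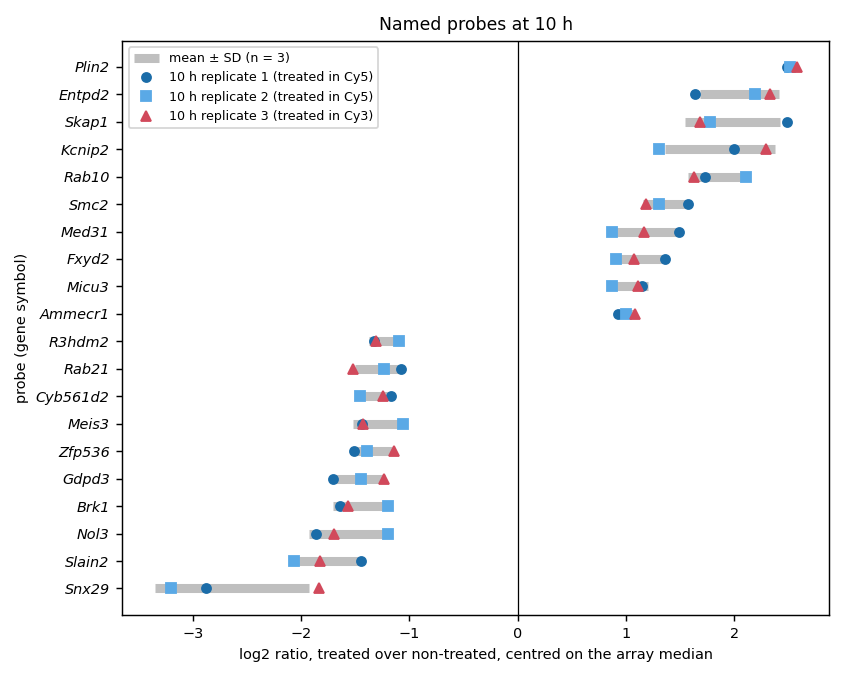
Log2 ratio (treated over non-treated, centred on the array median) of the 20 named probes on the 3 arrays at 10 h, with a grey bar for the mean ± SD (n = 3). Plin2 sits at 2.49 to 2.58 on all 3 arrays, and Snx29 spans -3.20 to -1.83; none passed the test.

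Where a named gene had another probe, that probe mostly gave a different answer. The other Rab10 probe read -0.32, -0.69 and 1.58, and the other Smc2 probe 0.048, -0.47 and -0.065. The other Brk1 probe read 0.14, 0.26 and -0.28. These are values on both sides of the median for genes whose named probe lay on one side. A Skap1 probe measured on 2 arrays read -3.17 and -1.54, opposite to the named one. The other Med31 probe read -0.39, 2.36 and 0.42. For Rab21, the other probes averaged -0.059 and 0.060, against -1.28 for the named one. Other Snx29 probes averaged -0.17 and, over 2 arrays, 0.24, against -2.64. Those of R3hdm2 averaged 0.25 and, from 0.64 and -3.13 on 2 arrays, -1.24, against -1.25. Those of Kcnip2 averaged -0.044, 0.20 and, over 2 arrays, -0.40, against 1.87.

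The same held over all genes with more than 1 probe. Of 1562 such genes, 748 (47.89%) had means of the same sign on all their probes. Over the 1273 genes with exactly 2 probes, Pearson's r between the 2 means was 0.0021 and Spearman's rho 0.034, as descriptions across genes. Over the 760 of these with no small whole-number ratio, r was 0.0149, and 51.84% had means of the same sign. All probes were above the array median on all 3 arrays for 37 genes and below it for 21.

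**Figure D2:**
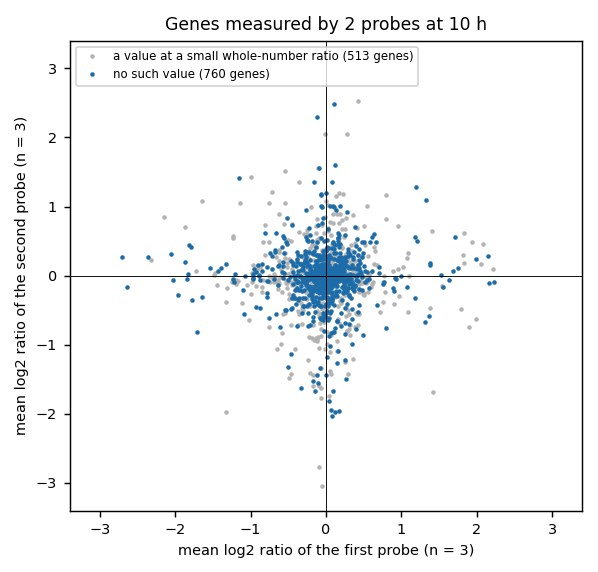
Mean log2 ratio (n = 3 arrays at 10 h) of the first probe against that of the second probe for 1273 genes with exactly 2 probes; grey points have a value at a small whole-number ratio and blue points (760 genes) have none. The points form a cross around 0 rather than a diagonal, with Pearson's r at 0.0021.

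Among the genes with all probes on one side, ranked by the smaller mean, Cchcr1, a centrosomal coiled-coil protein, led the higher ones. Its first probe stood at 1.10, 0.65 and 0.63, and its second at 0.71, 0.97 and 0.78. Both probes therefore gave close means, 0.79 and 0.82. Jazf1, a transcriptional cofactor, had a probe at 0.70, 0.56 and 0.62, and another that ranged from 0.60 to 3.07. Irf8, an interferon regulatory factor best known from myeloid cells, had means of 1.20 and 0.50. Atp5mpl, a small protein of ATP synthase, had means of 0.58 and 0.49. Rpl37, a protein of the large ribosomal subunit, had means of 0.50 and 0.49, with all 6 of its values between 0.40 and 0.67. Of these 5 genes, 2 thus belong to the ribosome or to ATP synthase.

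Among the lower ones, Ccn1, a matricellular protein of the serum response, had probes at -0.21, -0.23 and -0.48 and at -0.24, -0.16 and -0.57. Btg2, an antiproliferative early gene, had means of -0.33 and -0.40. Both genes read below the median on every array with each probe, with means from -0.31 to -0.40. The gene means turned to 0.034 for Ccn1 and 0.17 for Btg2 when read as Cy5 over Cy3. Plxnd1, a semaphorin receptor, had means of -0.25 and -0.45. Fech, which inserts iron into haem, had means of -1.97 and -0.28, and Pcdhac2, a clustered protocadherin, -1.72 and -0.81. No probe of these 10 genes passed the test (limma adjusted p at least 0.904).

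The second question was which groups of genes stood together at 10 h. Of 31 lists, the cytosolic ribosomal proteins of the small and of the large subunit had the highest shares of means above 0. Of 52 measured members, 49 had a mean above 0, against 49.3% of all 7216 genes, and 36 (69.23%) were above 0 on all 3 arrays, against 14.9% of all genes. None passed the test, and 21 of 52 had an unadjusted p under 0.05 in the higher direction, against 2.37% of all genes. The shares of all genes on one side on all 3 arrays, 14.9% above and 13.3% below, apply to every list that follows. On replicates 1, 2 and 3 their median lay 0.33, 0.46 and 0.36 above that of all genes. The 3 arrays were close for these genes, with a median SD of 0.14, against 0.38 for all genes. Genes of low spread more often had the same sign on all 3 arrays whatever their function: among all genes with an SD at or under the median, 23.25% were above 0 on all 3 and 16.85% below, against 6.62% and 9.81% of those over it. Among the 39 ribosomal genes with no small whole-number ratio, 29 were above 0 on all 3 arrays.

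In the large subunit, 28 of 31 measured genes had a mean above 0. Rpl34 stood at 0.52, 0.49 and 0.49, a mean of 0.50 ± 0.019 (SD, n = 3). Rpl41 stood at 0.54, 0.55 and 0.60, and Rpl19 at 0.39, 0.48 and 0.49. Values on the 3 arrays were within about 0.1 of each other for these genes. Rpl32 had the highest mean, 0.80 ± 0.24 (SD, n = 3), from 1.07, 0.69 and 0.63. Rpl24, Rpl23, Rpl31 and Rplp1, a stalk protein, averaged 0.54, 0.52, 0.50 and 0.53. The members below 0 were Rpl13, with -2.17, -0.86 and -0.093, Rpl38, with 0.045, -0.76 and -0.70, and Rplp0, with -0.69, 1.47 and -1.79. Rpl5 spread from -2.10 to 1.70. The members below 0 and Rpl5 had SDs of 0.45 to 2.01, wider than the list's median.

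In the small subunit all 21 measured genes had a mean above 0, from 0.075 for Rpsa to 0.64 for Rps15a. Rps15a stood at 0.60, 0.76 and 0.56. Rps27 stood at 0.45, 0.89 and 0.50, and Rps29 at 0.45, 0.75 and 0.49. Replicate 2 gave the highest value for each of these 3 genes. Rps20 averaged 0.50 ± 0.061 and Rps28 0.49 ± 0.12 (SD, n = 3 each). Rps21, averaged over 4 probes, stood at 0.36 ± 0.048 (SD, n = 3), a spread over arrays and not over probes. Its probes that were also measured on every 3 h array had means of 0.38, 0.58 and 0.62. With these means, the gene average of 0.36 requires a mean below 0 for the remaining Rps21 probe, on the other side of the array median. Ribosomal genes have many processed pseudogenes and near-identical copies, so a probe may also bind those.

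The direction of replicate 3 bears on the size of this result. Read as Cy5 over Cy3, the median of the large subunit lay 0.12 above all genes, against 0.32 in the main reading, and that of the small subunit 0.19, against 0.31. Under that reading 5 of the 52 genes were above 0 on all 3 arrays, against 15.8% of all genes. Both list medians stayed above all genes in both readings. Replicates 1 and 2 lay above all genes and are not changed by the turn, so this sign could hardly change.

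**Figure D3:**
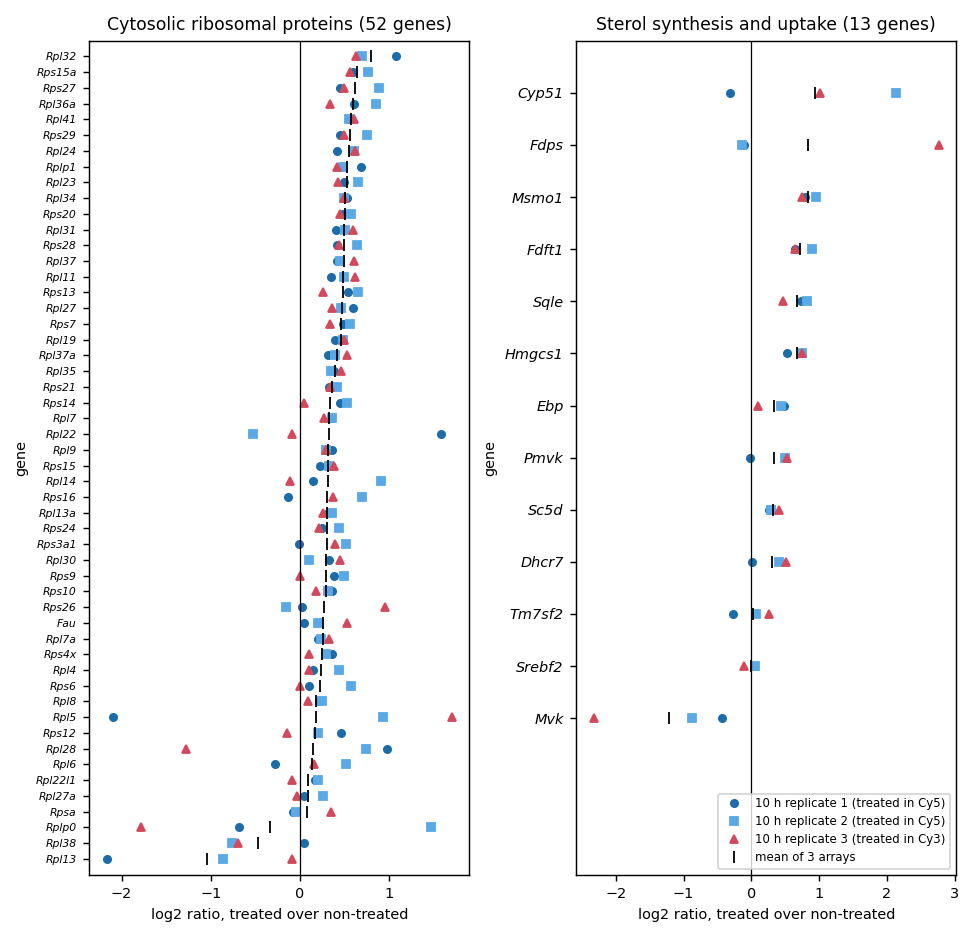
Log2 ratio (treated over non-treated) of each measured gene of the cytosolic ribosomal proteins (52 genes, left) and of sterol synthesis and uptake (13 genes, right) on the 3 arrays at 10 h, with a bar at the mean. Of the ribosomal genes 36 lie above 0 on all 3 arrays and Rpl13 below on all 3; of the sterol genes 7 lie above on all 3, Mvk below.

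The respiratory chain and ATP synthase lists leaned the same way. Of their 51 measured genes together, 38 had a mean above 0, and 24 (47.06%) were above 0 on all 3 arrays, against 14.9% of all genes. Unadjusted p under 0.05 was reached by 6 genes in the higher direction and 1 in the lower, against 2.37% and 2.48% of all genes. None passed after adjustment. Of complex I, the NADH dehydrogenase, 18 of 22 genes had a mean above 0 and 12 were above on all 3 arrays. Ndufa13 stood at 0.47, 0.65 and 0.61, Ndufa2 at 0.62, 0.54 and 0.42, and Ndufa5 at 0.32, 0.60 and 0.71. All 3 are accessory subunits. Ndufa9, also an accessory subunit, stood at -0.41, -0.86 and -0.96, below the median on every array. Of the core subunits, Ndufs1 had a mean of -0.016, Ndufv1 of 0.082, Ndufs7 of 0.038, Ndufv2 of -0.044 and Ndufs3 of -0.23.

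Of ATP synthase, 9 of 11 genes had a mean above 0 and 5 were above on all 3 arrays. Atp5o, the stalk subunit OSCP, stood at 0.25, 0.26 and 0.28, a mean of 0.27 ± 0.015 (SD, n = 3). Atp5j2 stood at 0.38, 0.40 and 0.65, and Atp5l at 0.39, 0.33 and 0.23. The catalytic subunit Atp5b, with 0.086, -1.10 and 0.56, and Atp5c1, with 0.45, -1.84 and 0.97, were scattered and had means below 0. The list median lay 0.23, 0.24 and 0.25 above all genes on replicates 1, 2 and 3. Of the means it lay 0.27 above all genes, and 0.13 without replicate 1, over the genes measured on the remaining arrays. Read as Cy5 over Cy3, the medians lay 0.047 above all genes for ATP synthase, against 0.27 in the main reading, and 0.12 for complex I, against 0.28.

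Complexes II to IV had 11 of 18 genes with a mean above 0, and 7 were above on all 3 arrays. Cox6c, a subunit of cytochrome c oxidase, stood at 0.71, 0.54 and 0.42, and Cox7b, another, at 0.48, 0.54 and 0.35. Uqcrfs1, the Rieske protein of complex III, stood at -0.93, -2.01 and -0.21. A probe of Cyc1, cytochrome c1, stood at -2.10, -2.05 and 1.80, so its sign followed the dye of the treated sample, while the other Cyc1 probe stood at -0.22, -0.09 and -0.46. The list median of complexes II to IV lay 0.10 above all genes. It was 0.22 without replicate 1, 0.16 without replicate 3, 0.039 without replicate 2 and 0.027 under the Cy5 over Cy3 reading.

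Proteins of the mitochondrial ribosome and of the proteasome had smaller medians. Of 43 mitochondrial ribosomal genes, 26 had a mean above 0 and 18 were above on all 3 arrays. Mrpl33 stood at 0.77, 0.54 and 0.67, and Mrps12 at 0.93, 0.61 and 0.59. The list median lay 0.12 above all genes, and 0.013 under the Cy5 over Cy3 reading. Of 17 proteasome genes, 14 had a mean above 0 and 8 were above on all 3 arrays. Psmc5, an ATPase of the regulatory particle, stood at 0.51, 0.35 and 0.63 as the average of 2 probes with means of 0.098 and 0.89. Psmb6, a catalytic subunit, stood at 0.18, 0.26 and 0.31. The proteasome median lay 0.12 above all genes, and 0.032 under the Cy5 over Cy3 reading.

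The factors that build and run the ribosome did not show the same count. Of 33 translation initiation and elongation factors, 18 had a mean above 0, 5 were above on all 3 arrays and 6 below. Eef1b2, an exchange factor for elongation factor 1, stood at 0.34, 0.32 and 0.14. Eif3f, a subunit of initiation factor 3, stood at -0.034, -0.46 and -1.20. Of 19 ribosome biogenesis genes and Myc targets, 9 had a mean above 0. Srm, spermidine synthase and a Myc target, stood at -0.43, -0.22 and -0.32, and Nop58, a core protein of small nucleolar particles, at -0.96, -0.02 and -0.23. The difference between these lists and the ribosomal proteins was not tested.

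Sterol synthesis and uptake had the highest list median, 0.34 above all genes, but the arrays differed. On replicates 1, 2 and 3 it lay 0.0095, 0.42 and 0.53 above all genes. Of 13 measured genes, 11 had a mean above 0 and 7 were above on all 3 arrays, against 14.9% of all genes. None passed the test, and 4 had an unadjusted p under 0.05 in the higher direction, against 2.37% of all genes. These 4 were enzymes along the pathway. Hmgcs1, which makes HMG-CoA at its entry, stood at 0.52, 0.75 and 0.74. Fdft1, squalene synthase, stood at 0.64, 0.89 and 0.64. Sqle, squalene epoxidase, stood at 0.73, 0.82 and 0.46. Msmo1, the sterol C4-methyl oxidase, stood at 0.79, 0.96 and 0.74, with the lowest unadjusted p of the list (0.00561; limma adjusted p 0.893). For each of the 4 the lowest of 3 values was above 0.46, and SDs were 0.11 to 0.19.

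The other enzymes were less even. Sc5d, the lathosterol oxidase, stood at 0.27, 0.29 and 0.40, and Ebp, the sterol isomerase, at 0.48, 0.44 and 0.096. Dhcr7, the last reductase, stood at 0.007, 0.41 and 0.51, and Pmvk, phosphomevalonate kinase, at -0.023, 0.50 and 0.52. Both read near 0 on replicate 1. Cyp51, lanosterol demethylase, stood at -0.32, 2.14 and 1.02, and Fdps, farnesyl diphosphate synthase, at -0.10, -0.14 and 2.77. Mvk, mevalonate kinase, was the exception, with -0.43, -0.88 and -2.33. Srebf2, which encodes SREBP2, stood at 0.033, 0.053 and -0.10. The list median was 0.51 without replicate 1, and 0.16 when read as Cy5 over Cy3.

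Of 10 fatty acid synthesis genes, 7 had a mean above 0 and 3 were above on all 3 arrays. Scd1 and Scd2, the stearoyl-CoA desaturases, stood at 0.64, 0.42 and 0.23 and at 0.36, 0.46 and 0.23. They are closely related genes whose probes may share signal. Acly, which makes cytosolic acetyl-CoA, stood at 0.50, 0.30 and 0.18. Fasn, fatty acid synthase, stood at -0.75, 0.11 and -0.20. None had an unadjusted p under 0.05. The list median lay 0.24 above all genes, but 0.029 without replicate 3, 0.13 without replicate 2 and 0.034 under the Cy5 over Cy3 reading. Of the adipocyte markers, Adipoq, the hormone adiponectin, stood at 0.46, -0.057 and 1.59, and Fabp4, a fatty acid carrier, at -0.65, -3.67 and 1.45. Of 7 measured adipocyte markers, 2 had a mean above 0, and 0 were on one side of the median on all 3 arrays. Of all genes, 14.9% were above and 13.3% below. The median SD of the adipocyte list was 1.08, against 0.38 for all genes.

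**Figure D4:**
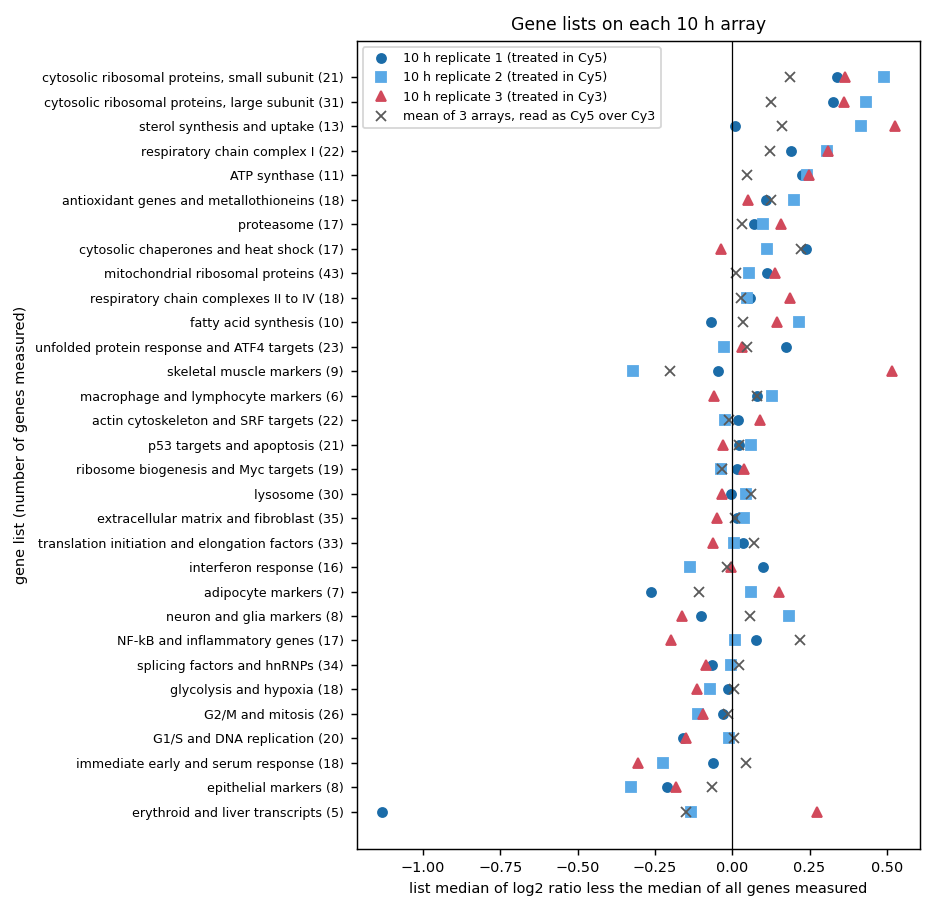
Median log2 ratio of each of 31 gene lists less the median of all 7216 genes, on each 10 h array (points) and for the mean of 3 arrays read as Cy5 over Cy3 (crosses); the number of measured genes follows each name. Both ribosomal lists lie between 0.33 and 0.49 on all 3 arrays, sterol synthesis at 0.0095 on replicate 1 and above 0.4 on the others.

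Of 31 lists, 13 lay below the median of all genes, with the epithelial markers, given further on, the lowest at -0.30. Among the 13 were the immediate early and serum response genes and the genes of G1/S and DNA replication. Of 18 immediate early genes, 4 had a mean above 0, and 6 were below 0 on all 3 arrays, against 13.3% of all genes, with 1 above on all 3. None passed the test, and 2 had an unadjusted p under 0.05 in the lower direction, against 2.48% of all genes. Fosb, an AP-1 subunit, stood at -0.57, -1.07 and -1.08. Dusp1, a phosphatase that turns off MAP kinases, stood at -0.73, -1.42 and -0.42. Egr1, a zinc finger factor of the serum response, stood at -0.14, -0.76 and -0.32. These 3 genes were below the array median on every array. Fosl1, also an AP-1 subunit, was the member above on all 3, with 0.53, 0.22 and 0.24. The list median lay 0.17 below all genes, and 0.043 above them when the values were read as Cy5 over Cy3, so its direction depends on the reading. It was -0.074 without replicate 2 and -0.30 without replicate 1.

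Of 20 genes of G1/S and DNA replication, 5 had a mean above 0, and 6 were below on all 3 arrays. None had an unadjusted p under 0.05. Pole, the leading-strand polymerase, stood at -0.10, -0.55 and -0.87, and Pold1, the catalytic subunit of polymerase delta, at -0.53, -0.47 and -0.039. Mcm7, a subunit of the replicative helicase, stood at 0.044, 0.31 and 0.71. The list median lay 0.15 below all genes, and 0.0048 above them under the Cy5 over Cy3 reading. Of 26 genes of G2/M and mitosis, 9 had a mean above 0, and 5 were below on all 3 arrays. Averaged over its 2 probes, Ncapd2, a condensin subunit, stood at -1.27, -1.22 and -0.23, but the probe means were -1.83 and 0.019. Smc2, of the same complex, averaged 0.60 over its 2 probes, with means of 1.35 and -0.16.

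Stress and signalling lists had medians that moved with the array left out. Chaperone and heat shock genes lay 0.053 above all genes, 0.25 without replicate 3, -0.00075 without replicate 2 and 0.22 under the Cy5 over Cy3 reading. ATF4 targets with the unfolded protein response lay 0.034 above, 0.18 without replicate 2 and -0.013 without replicate 1. Antioxidant genes lay 0.11 above, 0.199 without replicate 3 and 0.049 without replicate 2. None of these lists had a member that passed. Hspa1b, an inducible heat shock protein, stood at 1.07, 1.03 and 0.43. Hspa14 stood at -0.68, -0.53 and -0.29 as the average of 2 probes with means of -0.97 and -0.030. Gclc, the catalytic subunit of the rate-limiting enzyme of glutathione synthesis, stood at -0.81, -0.59 and -0.96, with an unadjusted p of 0.00925 (limma adjusted p 0.893). Mt2, a metallothionein, stood at 0.81, 1.41 and 0.11, and Txn1, thioredoxin, at 0.60, 0.49 and 0.15. Ddit3, the stress factor CHOP, stood at 0.60, 0.35 and 0.44, and Asns, an ATF4 target, at 0.36, 0.46 and 0.26. Trib3, another ATF4 target, stood the other way, at -2.001, -0.36 and -0.96. Of 23 measured ATF4 and unfolded protein response genes, 5 were above the median on all 3 arrays and 1 below.

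Cdkn1a, the p53 target p21, stood at -0.27, -0.71 and -0.31, while Gadd45a, another, stood at 0.22, 0.50 and 0.29. Of 21 p53 and apoptosis genes, 8 had a mean above 0. Hk2, an inducible hexokinase, stood at -0.77, -0.39 and -0.49. Of 18 glycolysis and hypoxia genes, 6 were below on all 3 arrays, against 13.3% of all genes. Ifit3, an interferon-induced gene, stood at -0.19, -0.72 and -0.78, and B2m, the light chain of MHC class I, at 0.33, 0.19 and 0.44. Of 17 NF-kB and inflammatory genes, 0 were on one side of the median on all 3 arrays. Of all genes, 14.9% were above and 13.3% below. The median SD of the NF-kB list was 0.77, against 0.38 for all genes. The medians of the p53, interferon and glycolysis lists lay between -0.053 and -0.031 relative to all genes, and each turned sign in at least 1 alternative.

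Genes that make up the fibroblast phenotype stayed near the median of all genes. Of 35 extracellular matrix and fibroblast genes, 20 had a mean above 0, with 5 above and 5 below on all 3 arrays. S100a4, also called fibroblast-specific protein, stood at 0.56, 0.46 and 0.36. Pdgfrb, the PDGF receptor of mesenchymal cells, stood at -0.54, -0.22 and -0.29. Col1a1, the main fibrillar collagen chain, was scattered, at -2.17, 0.047 and -1.18. Of 22 actin cytoskeleton genes, 10 had a mean above 0. Tmsb4x, thymosin beta 4, stood at 0.53, 0.34 and 0.35, and Cald1, caldesmon, at 0.39, 0.34 and 0.35. The lysosome list had 14 of 30 means above 0, and the splicing list 13 of 34.

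Markers of other cell types were measured as well. Epithelial markers lay 0.21, 0.33 and 0.18 below all genes on replicates 1, 2 and 3. Of the 8 genes, 4 were below on all 3 arrays, against 13.3% of all genes. The median of their means was -0.30 relative to all genes, and -0.056 without replicate 1, -0.075 without replicate 2 and -0.066 under the Cy5 over Cy3 reading. Cdh1, E-cadherin, stood at -1.72, -3.002 and -2.76, and Esrp1, an epithelial splicing factor, at -0.31, -2.15 and -1.34. Krt8 averaged -0.34, Epcam -0.27, Elf3 -0.51 and Krt14 -0.019, whereas Cldn7 averaged 0.33 and Krt5 0.21. The 8 genes of the list are not typical of fibroblasts, and their level in these cells cannot be read from a ratio. Of 6 macrophage and lymphocyte markers 3 were above on all 3 arrays, against 14.9% of all genes. The median of these markers lay 0.096 above all genes. The medians of skeletal muscle (9 genes), neuron and glia (8 genes) and erythroid and liver (5 genes) lists differed in sign between arrays. Their part in the results above was not tested.

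The last comparison set 10 h beside 3 h. No probe differed between the times at an adjusted p under 0.05 (limma, 6369 probes measured on all 7 arrays; 0 called, 0%; smallest adjusted p 0.185), and 534 (8.38%) had an unadjusted p under 0.05. At 10 h 4013 probes (63%) read higher than at 3 h, with a median difference of 0.17, which is the shift against which members are read. Whether both times share the non-treated RNA is not stated. The 3 h arrays had more values at small whole-number ratios (54.8% to 63.4% of spots), and the part of this in the differences was not tested.

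Of 56 ribosomal protein probes, 54 read higher at 10 h than at 3 h, with a median difference of 0.64, against 63% and 0.17 for all probes. Rps29 stood at -0.76, -0.45, -0.53 and -0.42 at 3 h and at 0.45, 0.75 and 0.49 at 10 h. The values of the 2 times did not overlap for Rps29, which had the lowest p-value of the 56 probes. Its difference was 1.10 (SE 0.29, limma adjusted p 0.447). How many of all probes were without overlap was not counted. Rpl34 stood at -0.99, -0.81, -0.56 and 0.15 at 3 h, all below its 10 h values. Rps15a averaged -0.43 ± 0.46 (SD, n = 4) at 3 h and 0.64 ± 0.11 (SD, n = 3) at 10 h. At 3 h replicate 4 gave the highest value for these 3 genes. Relative to all genes, the small subunit lay at -0.30, -0.30, -0.45 and 0.23 on the 3 h arrays, so 1 of the 4 was on the side seen at 10 h.

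Respiratory chain and ATP synthase probes were higher at 10 h in 39 of 50 cases, with a median difference of 0.53. Ndufb3, an accessory subunit of complex I, averaged -0.80 at 3 h and 0.39 at 10 h, a difference of 1.19 (SE 0.39; limma adjusted p 0.532). Sterol genes stood nearer the count of all probes, and the difference between the lists was not tested. Of 10 sterol probes, 6 read higher at 10 h, with a median difference of 0.16, close to the shift of all probes. Hmgcs1 stood at 0.87, 0.82, 1.37 and 1.78 at 3 h, and Msmo1 at 1.18, 0.89, 0.56 and 1.64. Every one of these 3 h values was above 0, as were the 10 h values. Fdft1 averaged 0.73 ± 0.62 (SD, n = 4) at 3 h and 0.72 ± 0.14 (SD, n = 3) at 10 h, and Sqle 0.59 ± 0.50 and 0.67 ± 0.19. The differences of these 4 genes had limma adjusted p-values of 0.693 to 0.999, which does not show that the times were alike. Fdft1 and Sqle both read 0 on replicate 3 of 3 h. Of the other sterol probes, Tm7sf2, Sc5d, Pmvk and Ebp averaged -1.07, -0.37, -0.11 and -0.079 at 3 h. Dhcr7 and Srebf2 averaged 0.062 each.

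**Figure D5:**
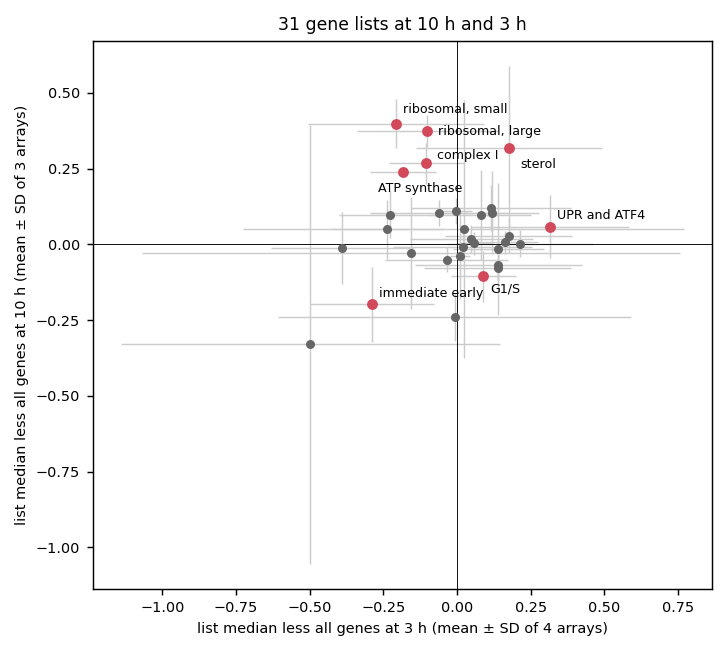
Mean ± SD over arrays of each list's median log2 ratio less that of all genes, at 3 h (4 arrays, horizontal) and at 10 h (3 arrays, vertical); red points are the lists named. Sterol synthesis lies above 0 at both times (0.18 and 0.32), while both ribosomal lists lie above 0 at 10 h (0.37 and 0.40) and below at 3 h (-0.10 and -0.21).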

How the data were processed

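The authors deposited log2 ratios of 20355 probes in a table covering 7 arrays. The labels state neither log base nor direction: base 2 was read from the small whole-number ratios, and treated over non-treated was assumed. Per the labels' protocols, column-purified total RNA was reverse transcribed, with indirect Cy3 or Cy5 labelling. These protocols speak of organs and a pool from control animals, while the source names give fibroblasts, which were followed. The settings of scanning, background correction and normalization were not given in the sources used here. Values over 15 in size were treated as missing. Arrays were centred on their medians, and means were tested against 0 with limma 3.58.1 (R 4.3.3), adjusted by Benjamini-Hochberg at 0.05, alone at 10 h and against 3 h. The scripts were tested on simulated data. Of the probes, 14030 carried 1 symbol, 5 several and 6320 none, from the platform annotation; the identifiers of 13994 matched RefSeq, which changed 0 symbols. Probes of a gene were averaged. The named probes were the 10 with the lowest p-value on either side of the median on all 3 arrays, plus the 5 genes in each direction whose probes agreed, ranked by the smaller mean; from each list up to 4 members of lowest p-value were named, and more where its median lay over 0.2 from all genes. The members, lists and tests were chosen with earlier results of these data known. Alternatives changed the reading of the ratios, centring, filters, spread model and replicates left out.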

Additional observations from a re-analysis of the deposited data

Results flagged for a closer look

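Some values at 10 h and 3 h lay on opposite sides of the median on every measured array of each time; these differences were not tested. ATP synthase genes lay 0.238 above all genes at 10 h and at -0.183 at 3 h, and complexes II to IV at 0.0977 and -0.228. The median over gene means of complexes II to IV at 10 h moved from 0.10 to 0.22 without replicate 1, 0.039 without replicate 2 and 0.027 under the Cy5 over Cy3 reading, and that of ATP synthase from 0.27 to 0.13 without replicate 1 and 0.047 under that reading. Slain2 averaged -1.78 at 10 h and 0.91 on the 3 arrays that measured it at 3 h. R3hdm2 averaged -1.25 and 1.12, and Snx29 -2.64 and 1.06, also over 3 arrays at 3 h. All 3 probes read 0.585 on replicate 4 of 3 h, the most frequent value of that array. At 3 h 54.8% to 63.4% of spots were at small whole-number ratios. The 3 probes were picked for lying on one side at 10 h, and the share of all probes on opposite sides was not counted. At 10 h other probes of Snx29 averaged -0.17 and 0.24, and other probes of R3hdm2 0.25 and -1.24. Groups of 3 arrays were not searched for a single deviating one.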

How the results depend on the processing

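The count of probes passing at 10 h was 0 under each of 13 alternatives. Of the 31 list medians, 13 kept their sign relative to all genes under each of 9 alternatives, among them the large (0.12 to 0.41) and small (0.19 to 0.37) ribosomal subunits, complex I (0.12 to 0.32), ATP synthase (0.047 to 0.28) and sterol synthesis (0.16 to 0.51). The immediate early and G1/S lists turned sign under the Cy5 over Cy3 reading. A list on one side on all 3 arrays can hardly turn when 1 array is left out, so its kept sign is a description. The count at an unadjusted p under 0.05, 608, became 945 with a dye term, 338 with 1 spread over all 7 arrays and 350 for gene means, and 513 to 861 without each replicate. Against 3 h the count passing was 0 throughout; the unadjusted count, 534, became 203 under the Cy5 over Cy3 reading and 286 to 876 without each replicate (310 without replicate 1 and 286 without replicate 2 of 10 h, 876 without replicate 3 and 811 without replicate 4 of 3 h). The cause was not tested. Same-numbered arrays of the 2 times correlated at 0.0282 to 0.0913. The 10 h arrays correlated no better among themselves (-0.122 to 0.0893), so these values cannot decide whether same-numbered arrays were paired. The 3 h array of highest correlation was the same-numbered one for replicates 1 and 3 but not for replicate 2. With the replicate number as a block, 674 probes had an unadjusted p under 0.05 and 0 passed (smallest adjusted p 0.45).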
